A study of Mus musculus with 18 samples.

Results

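The genes described here encode core splicing factors, and they were taken by symbol: the SR proteins (Srsf followed by a digit), the hnRNP proteins (Hnrnp), the subunits of the splicing factors SF3A and SF3B (Sf3a, Sf3b) and the proteins of the small nuclear ribonucleoproteins, or snRNPs (Snrp). Of 10509 genes listed in the islet libraries, 44 had such a symbol: 10 SR proteins, 17 hnRNP proteins, 8 SF3 subunits and 9 snRNP proteins. The knockout group, called KO, held 10 mice in which NRK1, a kinase of nicotinamide riboside, had been removed with an Ins1Cre driver, which acts in the beta cells of the islet. The WT group held 8 mice with the gene intact, and the labels do not say whether these carried Cre. All 18 mice had been on a high-fat diet for 12 weeks, so no group on another diet is compared, and each mouse gave 1 library of whole islets. Age, sex, strain and batch are not given in the labels.

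Splicing removes introns from the pre-mRNA in steps that these proteins carry. The U1 snRNP pairs with the start of the intron, and the U2 snRNP with its SF3A and SF3B complexes settles on the branch point. Sm proteins form a ring around most of the snRNAs. SR proteins mostly bind exon sequence and help a splice site to be used, while hnRNP proteins coat the pre-mRNA and often keep sites from being used, so the balance of the families sets which exons are kept. In beta cells, alternative splicing is known to touch genes of insulin secretion and of cell survival under cytokines, and several of the regulators there are shared with neurons.

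Transcripts were read at their 3′ ends, with about 1 read per transcript whatever its length, so that levels can be set side by side between genes. The level of a gene is the deposited log2 of CPM, the reads of a gene scaled to a common library size, plus a small floor. A library held 2831137 to 4303680 reads over the listed genes, and 33 to 346 of these genes had 0 reads, with the most in WT 7 (346), KO 2 (320) and KO 3 (227). Results that rest on these 3 libraries are given with and without them. The insulin gene Ins2 took 44.6% ± 5.56 (SD, n = 10) of the reads in KO and 38.7% ± 3.78 (SD, n = 8) in WT. Summed beta-cell markers reached 376060 to 784223 CPM in KO and 398514 to 663918 CPM in WT. Alpha-cell markers stood at 2012 to 9270.1 CPM in KO and 3819 to 11758 CPM in WT, and acinar markers at 50.3 to 2000.4 CPM in KO and 58.3 to 1919 CPM in WT, so each library was islet with a varying share of other cells. The targeted gene, Nmrk1, had a mean log2 level of 1.99 ± 0.49 (SD, n = 10) in KO and 2.01 ± 0.92 (SD, n = 8) in WT, from 3 to 36 reads, and since the deleted stretch is not given in the labels its 3′ end reads do not check the genotype. In whole islets, fewer cells of a type and less RNA per cell cannot be told apart.

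Promoters are printed for 5 members on which the results turn: Srsf6 and Hnrnpk, whose levels followed each other most closely across libraries, Sf3b2, which ran against the same group of genes, and Srsf4 and Hnrnpl, which had the smallest p between KO and WT. Each sequence runs from 250 bases before to 50 after a transcript start, on the strand of the gene, from RefSeq on GRCm38.p6. Capitals mark every match, on either strand, to 5 short motifs, and overlapping matches run together. The GC box is searched as GGGCGG. For the CCAAT box its own letters are used. ETS factors are represented by CCGGAAG. The core of the cAMP response element is taken as TGACG. The motif of NRF1 is the last of them. For Sf3b2 and Srsf4, which have several starts in the table, the start farthest upstream is shown.
Srsf6, chr2:162931258-162931557, plus strand: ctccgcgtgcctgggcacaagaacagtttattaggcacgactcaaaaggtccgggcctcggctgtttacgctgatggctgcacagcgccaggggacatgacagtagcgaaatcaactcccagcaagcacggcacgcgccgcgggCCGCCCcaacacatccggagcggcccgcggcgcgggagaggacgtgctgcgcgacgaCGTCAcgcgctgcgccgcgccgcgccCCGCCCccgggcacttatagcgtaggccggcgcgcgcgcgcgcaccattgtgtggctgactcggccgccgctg
Hnrnpk, chr13:58402068-58402367, minus strand: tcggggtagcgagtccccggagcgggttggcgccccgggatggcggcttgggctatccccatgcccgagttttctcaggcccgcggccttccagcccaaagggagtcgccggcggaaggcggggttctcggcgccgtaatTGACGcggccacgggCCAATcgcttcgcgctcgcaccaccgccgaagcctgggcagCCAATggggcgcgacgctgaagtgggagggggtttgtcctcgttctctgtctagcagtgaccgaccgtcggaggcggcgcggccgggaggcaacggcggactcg
Sf3b2, chr19:5295408-5295707, minus strand: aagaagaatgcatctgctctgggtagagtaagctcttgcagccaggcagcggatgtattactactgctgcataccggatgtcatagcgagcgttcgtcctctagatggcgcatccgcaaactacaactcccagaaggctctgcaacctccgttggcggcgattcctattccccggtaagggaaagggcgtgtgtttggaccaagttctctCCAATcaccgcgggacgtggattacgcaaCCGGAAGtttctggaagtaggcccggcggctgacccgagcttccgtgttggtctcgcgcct
Srsf4, chr4:131873387-131873686, plus strand: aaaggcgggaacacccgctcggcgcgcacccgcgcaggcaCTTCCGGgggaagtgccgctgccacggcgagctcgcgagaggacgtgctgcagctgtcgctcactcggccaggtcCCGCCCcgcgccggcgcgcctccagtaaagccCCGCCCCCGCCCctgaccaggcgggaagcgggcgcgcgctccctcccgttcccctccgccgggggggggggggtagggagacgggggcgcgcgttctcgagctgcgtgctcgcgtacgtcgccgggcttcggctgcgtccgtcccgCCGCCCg
Hnrnpl, chr7:28810640-28810939, plus strand: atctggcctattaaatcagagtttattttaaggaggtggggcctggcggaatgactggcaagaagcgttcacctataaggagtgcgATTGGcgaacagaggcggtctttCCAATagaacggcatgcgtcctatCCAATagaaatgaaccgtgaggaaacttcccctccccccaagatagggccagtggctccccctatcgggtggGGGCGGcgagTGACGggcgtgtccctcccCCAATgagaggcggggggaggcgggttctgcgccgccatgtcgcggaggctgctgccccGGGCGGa

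Motif counts in the promoters are given by family as a description, with no test. The table gave 55 promoters for 41 of the 44 members, with a median GC content of 61%, against 52.67% for all 32851 promoters of the table. That background was not limited to the genes listed in these islets, so the shares below do not compare the members with other listed genes. A GC box was present in 67.3% of the members' promoters and in 35.7% of all promoters. The ETS motif was present in 32.7% and 8.86%, the NRF1 motif in 18.2% and 4.60%, and the cAMP response element core in 47.3% and 20.8%, while the CCAAT box was about as frequent in both, at 41.8% and 37.4%. By gene, the ETS motif was found for 6 of 7 SF3 subunits, 4 of 8 snRNP proteins, 4 of 10 SR proteins and 1 of 16 hnRNP proteins, the exception being Hnrnpd. The CCAAT box had another distribution, with 11 of 16 hnRNP proteins, 4 of 10 SR proteins, 2 of 7 SF3 subunits and 2 of 8 snRNP proteins. The cAMP response element core was found for 7 of 10 SR proteins and 0 of 7 SF3 subunits. Of the 5 printed promoters, that of Srsf6 held 2 GC boxes and no CCAAT box, that of Hnrnpk 2 CCAAT boxes and no GC box, and that of Hnrnpl 4 CCAAT boxes and 2 GC boxes. Srsf4 had 4 GC boxes, of which 2 lie directly side by side, and 1 ETS motif, and Sf3b2 had 1 CCAAT box and 1 ETS motif. These are matches of letters in a fixed window and say nothing of binding.

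Splicing factor transcripts were more abundant than most listed genes, and a few of them supplied most of the reads. The members had a median log2 level of 5.61, against 4.10 over all listed genes, and 31 of 44 lay above the median gene. Together they took 0.339% ± 0.0519 (SD, n = 10) of the reads in KO and 0.350% ± 0.0362 (SD, n = 8) in WT. Of the reads outside insulin, they took 0.664% ± 0.0635 (SD, n = 10) in KO and 0.645% ± 0.0279 (SD, n = 8) in WT, with KO 2 highest at 0.820%. Srsf11 alone gave 17.7% of the reads of all members, Sf3b2 11.8% and Hnrnpu 6.51%, and the leading 7 genes gave 52.1%. By family the median log2 level was 6.15 for the hnRNP proteins, 5.66 for the SR proteins, 5.28 for the SF3 subunits and 3.60 for the snRNP proteins. Every member had a read in every library except Hnrnpa1 and Snrpg, and 38 of 44 had at least 10 reads in each.

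Among the SR proteins Srsf11, an SR-related factor that binds U2AF and the U1 snRNP, stood far above the rest at a mean log2 level of 9.18. Srsf5 (6.63), Srsf7 (6.59) and Srsf6 (6.40) followed. Srsf3, which also takes part in mRNA export, Srsf2, a classic activator of splice sites, and the splicing repressor Srsf10 lay close together at 5.68, 5.64 and 5.58, differences smaller than the spread of any of them between libraries. Srsf9 and Srsf1, close relatives that antagonise some hnRNP proteins, were at 5.38 and 5.37, and Srsf4 was the lowest of the family at 4.37. The hnRNP proteins spanned from Hnrnpu, the nuclear scaffold protein, at 7.76 to Hnrnpa1 at 1.44. Below Hnrnpu came Hnrnpm (7.37), the poly-C binding Hnrnpk (6.91), Hnrnpab (6.81), Hnrnpdl (6.66) and Hnrnpd (6.58). Hnrnpa1, a well-studied splicing repressor, was read at 0 to 24 reads per library, and its relative Hnrnpa2b1 at 50 to 227. Hnrnph3 had 1 to 26 reads and Hnrnph1 21 to 66.

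In the SF3 complexes, Sf3b2, which contacts the pre-mRNA near the branch point, had a mean log2 level of 8.61 and Sf3b1, the largest subunit and a common target of mutation in blood cancers, 7.001. The scaffold subunit Sf3b3 was at 5.88, Sf3a1 at 5.77, Sf3a2 at 4.79, the branch point contact Sf3b6 at 4.65, and the small Sf3b5 and Sf3a3 at 3.58 and 3.55. Subunits of 1 complex thus differed widely in 3′ end reads. The snRNP proteins were the least abundant family. Snrpb2 of the U2 snRNP was at 5.36 and Snrpn, the imprinted relative of Snrpb that is used in neurons, at 5.29. The Sm ring proteins Snrpd2, Snrpb, Snrpe and Snrpg were at 4.03, 3.94, 2.95 and 2.43. The U1 proteins Snrpa and Snrpc were at 3.37 and 2.20, and Snrpa1 of U2 was at 3.60. In all 18 libraries Snrpn was above Snrpb on this scale, with the log2 ratio ranging from 0.28 to 2.42 in KO and from 0.99 to 2.02 in WT.

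Some of these levels depend on how reads were assigned, about which the labels and notes say nothing. In the mouse annotation, the last 400 bases of Hnrnpa3 were shared, over at least 50 bases at 97% identity or more, with 16 other genes, 15 of them pseudogenes. Snrpc shared such a stretch with 4 pseudogenes and Snrpe with 2, and Hnrnpab with 7 other genes over at most 85 bases. Snrpn overlaps Gm38393 on the same strand at its end. Reads of these 5 genes are therefore uncertain. For Hnrnpa1 the same search found 0 copies. A gene on the other strand reaches the last 500 bases of Hnrnpab (Phykpl), Srsf4 (Gm12992) and Srsf2 (Mettl23), and reads of such partners cannot be told apart if strand was not used in the counting.

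**Figure D1:**
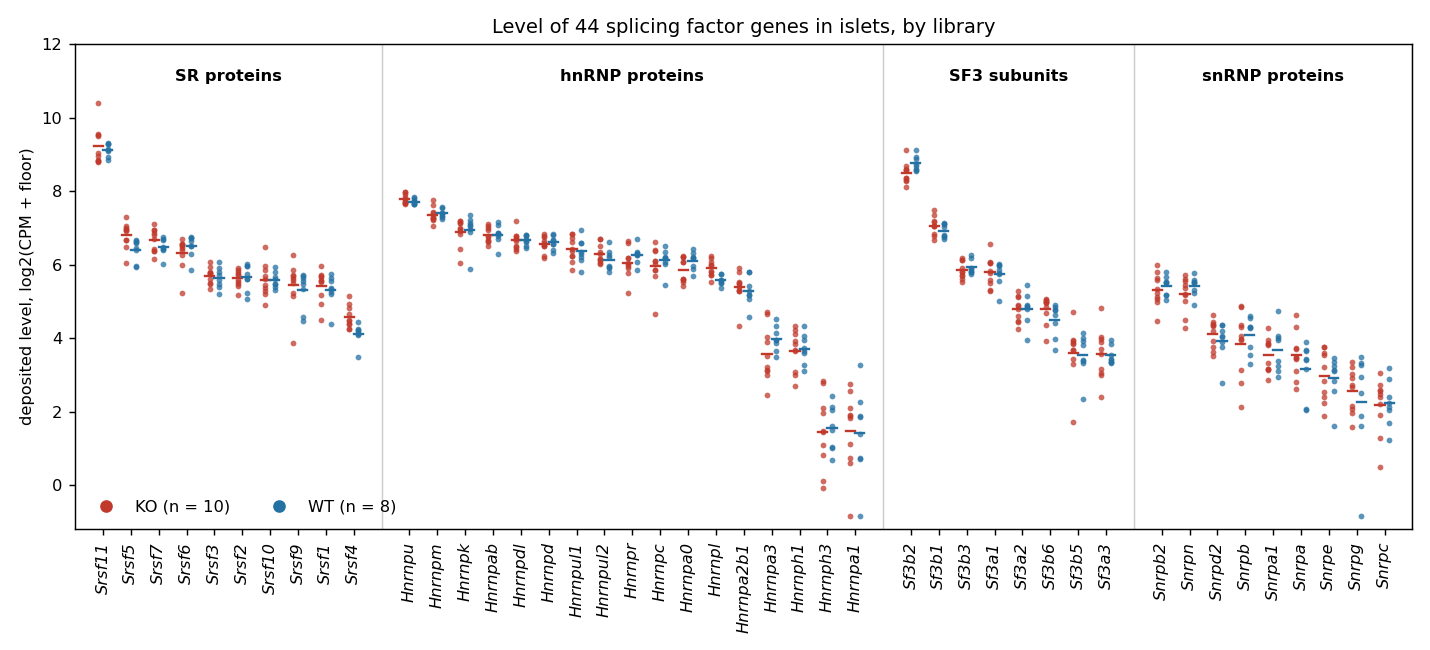
Deposited level, log2 of CPM plus a floor, of each of the 44 splicing factor genes (horizontal axis, grouped by family and ordered by mean) in 10 KO (red, left) and 8 WT (blue, right) libraries, with bars at the group means. Srsf11 (9.18) and Sf3b2 (8.61) stand above the other members, snRNP proteins lie lowest as a family, and the KO and WT points overlap for every gene.

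Between KO and WT islets, no splicing factor gene passed the test over all genes. Limma, a linear model fitted to every gene with Benjamini-Hochberg adjustment, called 0 of 44 members at an adjusted p under 0.05, and 0% of the 10509 genes. At an unadjusted p under 0.05 it found 3 members higher in KO, Srsf4, Hnrnpl and Srsf5, where 3.18% of all genes were higher. It found 0 members lower, where 2.22% of all genes were, so that 6.82% of the members had such a p in either direction, against 5.4% of all genes. An exact rank-sum test called 0 members and 0% of genes, with 4 members (9.09%) at an unadjusted p under 0.05, against 5.09% of all genes, and limma voom on recovered reads called 0 members and 0% of genes, with 3 members (6.82%) against 5.2%. For 0 of 44 members did the KO libraries lie entirely above or entirely below the WT libraries, which held for 0.00952% of all genes in the upward and 0% in the downward direction.

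Most intervals around these differences lay within a 2-fold change, and fewer lay within a 1.5-fold change. Of the members 22 had a log2 fold change above 0 and 22 below, a share of 50.0%, against 49.6% of all genes above 0. Their median was 0.01, against -0.0025 over all genes, and their median absolute log2 fold change was 0.10, against 0.16. The 95% interval lay within a 1.5-fold change for 27 members, or 61.4%, against 38.9% of all genes, and within a 2-fold change for 42 members, or 95.5%, against 77.1%. Only the intervals of Hnrnpa1 and Snrpg, which had 0 reads in at least 1 library, reached past a 2-fold change. The members were also more abundant than most genes, and the part of that in the width of the intervals was not tested. Families gave median log2 fold changes of 0.11 for the SR proteins, with 7 of 10 higher in KO, -0.04 for the hnRNP proteins, with 6 of 17 higher, 0.05 for the SF3 subunits, with 5 of 8 higher, and -0.05 for the snRNP proteins, with 4 of 9 higher. No direction is read from the last 3, since each changed sign when single libraries or other sets of libraries were left out or weighted differently, as given with the limits of the processing. No direction is read from the SR median either. In 12 libraries with the run of animal numbers as a term it was 0.01. Srsf1, Srsf2, Srsf3, Srsf6 and Srsf9 were then below 0. The only KO libraries of the first of these runs were KO 2 and KO 3.

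**Figure D2:**
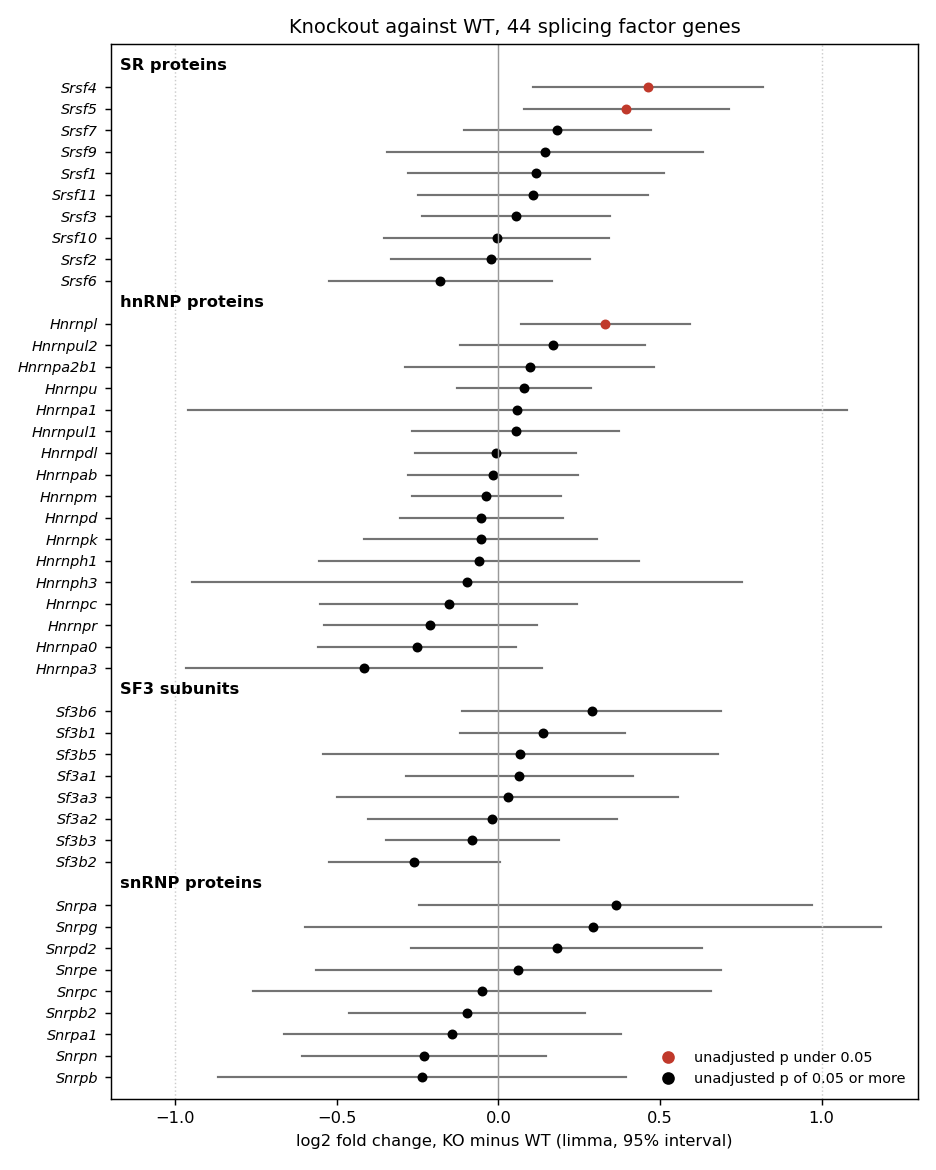
Log2 fold change, KO minus WT, from limma with its 95% interval for the 44 members, grouped by family and sorted by value. Srsf4 (0.46), Srsf5 (0.40) and Hnrnpl (0.33), in red, had an unadjusted p under 0.05, and 0 members passed after adjustment over all genes.

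Srsf4, Srsf5 and Srsf7 led the SR proteins in the higher direction. The level of Srsf4 was 4.25, 4.48 and 5.14 (lowest, median and highest of 10) in KO libraries and 3.48, 4.16 and 4.43 (of 8) in WT libraries. All 10 KO libraries lay above the WT mean, although the groups overlapped between 4.25 and 4.43. The log2 fold change was 0.46 (SE 0.17, 95% interval 0.11 to 0.82), with a limma p of 0.013 and 0.897 when adjusted over all genes, and in the exact rank-sum test p was 0.000868 and adjusted 0.480. Mice of both groups occur in 3 runs of consecutive animal numbers, and within these KO minus WT was 0.87, 0.50 and 0.22. The only KO libraries of the first run were KO 2 and KO 3. Without KO 2, KO 3 and WT 7 the log2 fold change of Srsf4 was 0.37.

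Srsf5, an SR protein that responds to insulin in other cell types, had log2 levels of 6.04, 6.92 and 7.30 (lowest, median, highest) in KO and 5.93, 6.53 and 6.67 in WT. In 9 of 10 KO libraries it was above the WT mean, while KO 3 lay near the bottom of the WT range. Its log2 fold change was 0.40 (SE 0.15), with a limma adjusted p of 0.915, and it was 0.36 without KO 2, KO 3 and WT 7. Within runs KO minus WT was 0.14, 0.19 and 0.94, and it was largest in the run that holds 1 WT library. Srsf7 had a log2 fold change of 0.18 (SE 0.14, limma adjusted p 0.953) and Srsf6, in the other direction, -0.18 (SE 0.17, limma adjusted p 0.955). For Srsf11 the values were 8.80, 9.00 and 10.41 in KO and 8.84, 9.14 and 9.29 in WT, and the highest, in KO 2, stood apart from all other libraries. Summed over the family, SR protein transcripts made up 1204 CPM ± 319 (SD, n = 10) in KO and 1074 CPM ± 81.5 (SD, n = 8) in WT. Without KO 2, at 2024 CPM, the KO mean was 1112 CPM ± 146 (SD, n = 9).

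Hnrnpl, which binds CA repeats and silences or enhances nearby exons, was the hnRNP protein with the smallest p. Its log2 level was 5.54, 5.90 and 6.22 (lowest, median, highest) in KO and 5.36, 5.57 and 5.75 in WT. The groups overlapped, with 9 of 10 KO libraries above the WT mean. Its log2 fold change was 0.33 (SE 0.13, 95% interval 0.07 to 0.59), with a limma p of 0.015, an adjusted p of 0.897 and an exact rank-sum p of 0.00439 (adjusted 0.599). Each of the 3 runs had KO above WT, by 0.54, 0.24 and 0.44, where the first value rests on KO 2 and KO 3. Without KO 2, KO 3 and WT 7 the log2 fold change of Hnrnpl was 0.26. Hnrnpa0, a binder of AU-rich RNA, was at -0.25 (SE 0.15), Hnrnpa3 at -0.42 (SE 0.27) and Hnrnpr at -0.21 (SE 0.16), with limma adjusted p of 0.945, 0.945 and 0.951. Hnrnpr was at 0.06 over the 12 libraries of the runs, so its direction depends on the libraries used. Hnrnpu was the steadiest member, at 7.65, 7.75 and 7.99 in KO and 7.64, 7.69 and 7.84 in WT, a group-centred SD of 0.11 on the log2 scale. Of the 500 genes nearest to it in level, 0% had a smaller SD. Summed hnRNP transcripts were 1308 CPM ± 61.8 (SD, n = 10) in KO and 1310 CPM ± 64.3 (SD, n = 8) in WT.

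Sf3b2 had the smallest p among members lower in KO. Its log2 level was 8.10, 8.47 and 9.11 (lowest, median, highest) in KO and 8.54, 8.72 and 9.12 in WT. Of the KO libraries 9 of 10 lay below the WT mean, and the exception was KO 3, which at 9.11 was as high as the highest WT library. The log2 fold change was -0.26 (SE 0.13, 95% interval -0.53 to 0.0045), with a limma p of 0.054 and an adjusted p of 0.930. It was -0.30 without KO 2, KO 3 and WT 7, and -0.07 over the 12 libraries of runs with the run as a term. By run KO minus WT was 0.21, -0.22 and -0.26, where the first value rests on KO 2 and KO 3. Sf3b6 had a log2 fold change of 0.29 (SE 0.20, limma adjusted p 0.945), which was -0.09 over the 12 libraries. Sf3b1 differed by 0.14 with an interval of -0.12 to 0.39. Summed SF3 transcripts were 698 CPM ± 82.5 (SD, n = 10) in KO and 747 CPM ± 58.1 (SD, n = 8) in WT.

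Among snRNP proteins the smallest p in each direction belonged to Snrpa, a protein of the U1 snRNP, at a log2 fold change of 0.36 (SE 0.30), and Snrpn at -0.23 (SE 0.18), both with a limma adjusted p of 0.955. Snrpa ranged from 2.62 to 4.62 in KO and from 2.04 to 3.90 in WT. Snrpn ranged from 4.28 to 5.73 in KO and from 4.91 to 5.77 in WT. Snrpg was read 0 times in WT 1 and up to 42 times elsewhere, and its log2 fold change of 0.29 had an interval of -0.60 to 1.18. Summed snRNP transcripts were 154 CPM ± 32.8 (SD, n = 10) in KO and 159 CPM ± 21.2 (SD, n = 8) in WT.

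**Figure D3:**
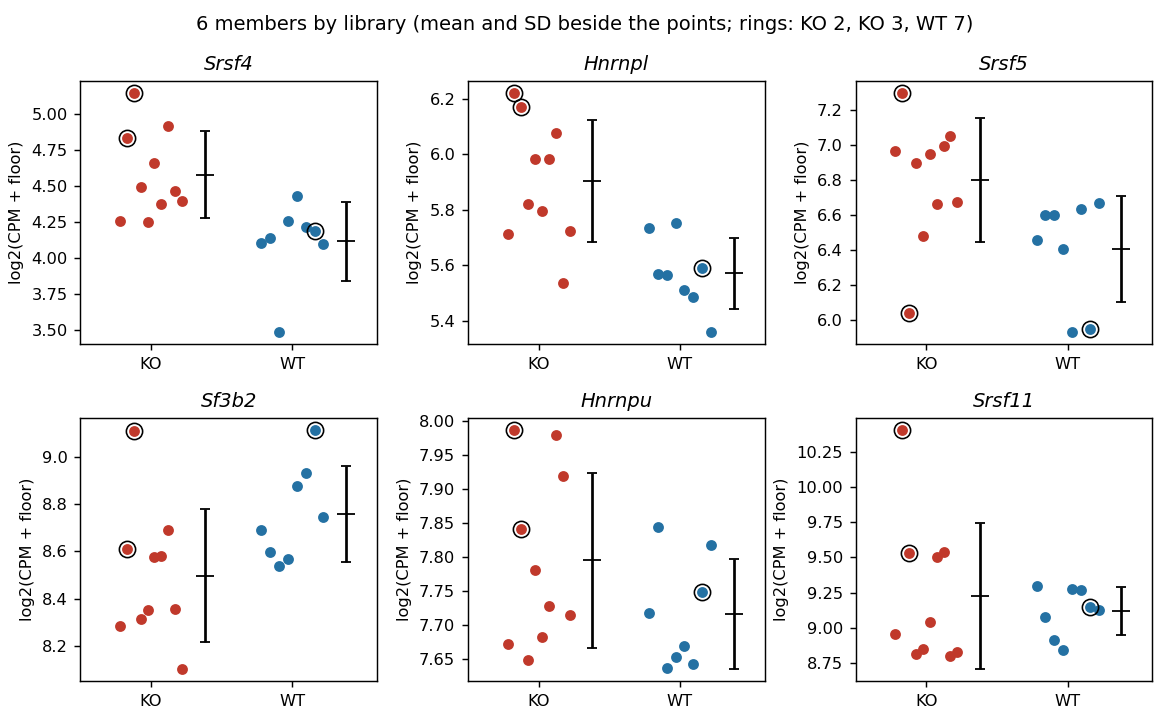
Log2 level of 6 members in each KO (red, left) and WT (blue, right) library, with the mean and SD beside the points and rings around KO 2, KO 3 and WT 7. KO points lie mostly above WT for Srsf4, Hnrnpl and Srsf5 and mostly below for Sf3b2 with overlap in each, Hnrnpu spans 7.64 to 7.99, and KO 2 stands alone for Srsf11 at 10.41.

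Ratios between close relatives were compared within libraries, so that the scaling by depth and insulin share cancels. The floor added to each level does not cancel, and it weighs most on genes with few reads, such as Hnrnpa1. For 3 of 11 pairs a gene was not listed, and 8 were tested, with p-values adjusted over the 8. The log2 ratio of Srsf4 to Srsf6 was -2.19, -2.05 and -0.09 (lowest, median, highest) in KO and -3.26, -2.40 and -1.67 in WT. All 10 KO ratios lay above the WT mean, and the ranges overlapped. Their means were -1.74 ± 0.66 (SD, n = 10) in KO and -2.39 ± 0.47 (SD, n = 8) in WT, so that KO minus WT was 0.64, with an exact permutation p of 0.0202 and an adjusted p of 0.161. Without KO 2, KO 3 and WT 7 the difference was 0.47 with an adjusted p of 0.0323 (exact permutation), and without WT 7 alone it was 0.74 with an adjusted p of 0.0448. The call therefore depends on which libraries are kept, while the direction did not change in any of the 22 alternatives. The other 7 ratios had an adjusted p of 0.983 (exact permutation). They include Snrpn to Snrpb, with 1.35 ± 0.67 (SD, n = 10) in KO and 1.34 ± 0.31 (SD, n = 8) in WT, and Snrpb2 to Snrpa, with 1.79 ± 0.85 (SD, n = 10) in KO and 2.25 ± 0.86 (SD, n = 8) in WT.

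Across libraries the members did not move as a block. After the group means were removed, the median Pearson correlation of the 946 pairs of members was 0.03, with quartiles at -0.22 and 0.27, against -0.00015 over all pairs of listed genes. For the 28 members with a mean log2 level of at least 5 it was 0.06, against 0.0099 over the 3371 listed genes at that level. Correlations above 0.5 were found for 111 pairs and below -0.5 for 63. After adjustment over the 946 pairs 65 had a permutation p under 0.05, of which 45 were positive and 20 negative. Shares of such pairs over all genes were not counted. The median absolute correlation was 0.24 for the members, against 0.22 over all pairs of listed genes. At a mean log2 level of at least 5 it was 0.30, against 0.28. Within families the median was 0.16 for the SR proteins, 0.19 for the snRNP proteins, -0.01 for the hnRNP proteins and 0.00 for the SF3 subunits, and for SR with snRNP proteins it was -0.08. Libraries share depth and insulin share across all genes, and the runs of animal numbers hold 4 libraries each, too few for a correlation within a run.

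A set of members was low together in KO 3 and WT 7. Srsf6 was at 5.23 in KO 3 and 5.86 in WT 7, where the medians were 6.48 in KO and 6.58 in WT. Hnrnpk was at 6.06 in KO 3 and 5.88 in WT 7, against medians of 6.99 in KO and 7.06 in WT, and Hnrnpc, which binds uridine tracts, at 4.65 and 5.45, against 6.06 in KO and 6.18 in WT. Srsf9 and Sf3b5 were low in the same libraries, at 3.87 and 1.72 in KO 3 and 4.45 and 2.34 in WT 7. In both libraries Sf3b2 was at its highest, 9.11 and 9.12. Ins2 took 56.1% of the reads in KO 3 and 45.9% in WT 7, the highest share in each group. These 2 libraries were also among the 3 with the most genes at 0 reads, and the part of either in the pattern was not tested. KO 2, the other such library, shared the pattern in part. Srsf6 (5.99), Hnrnpk (6.43) and Hnrnpc (5.68) were below their KO medians there, though above KO 3. Srsf9, at 5.68, was not low. KO 2 differed further with Srsf11 at 10.41 and Snrpb, Snrpn and Snrpb2 at their lowest, 2.12, 4.28 and 4.46.

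**Figure D4:**
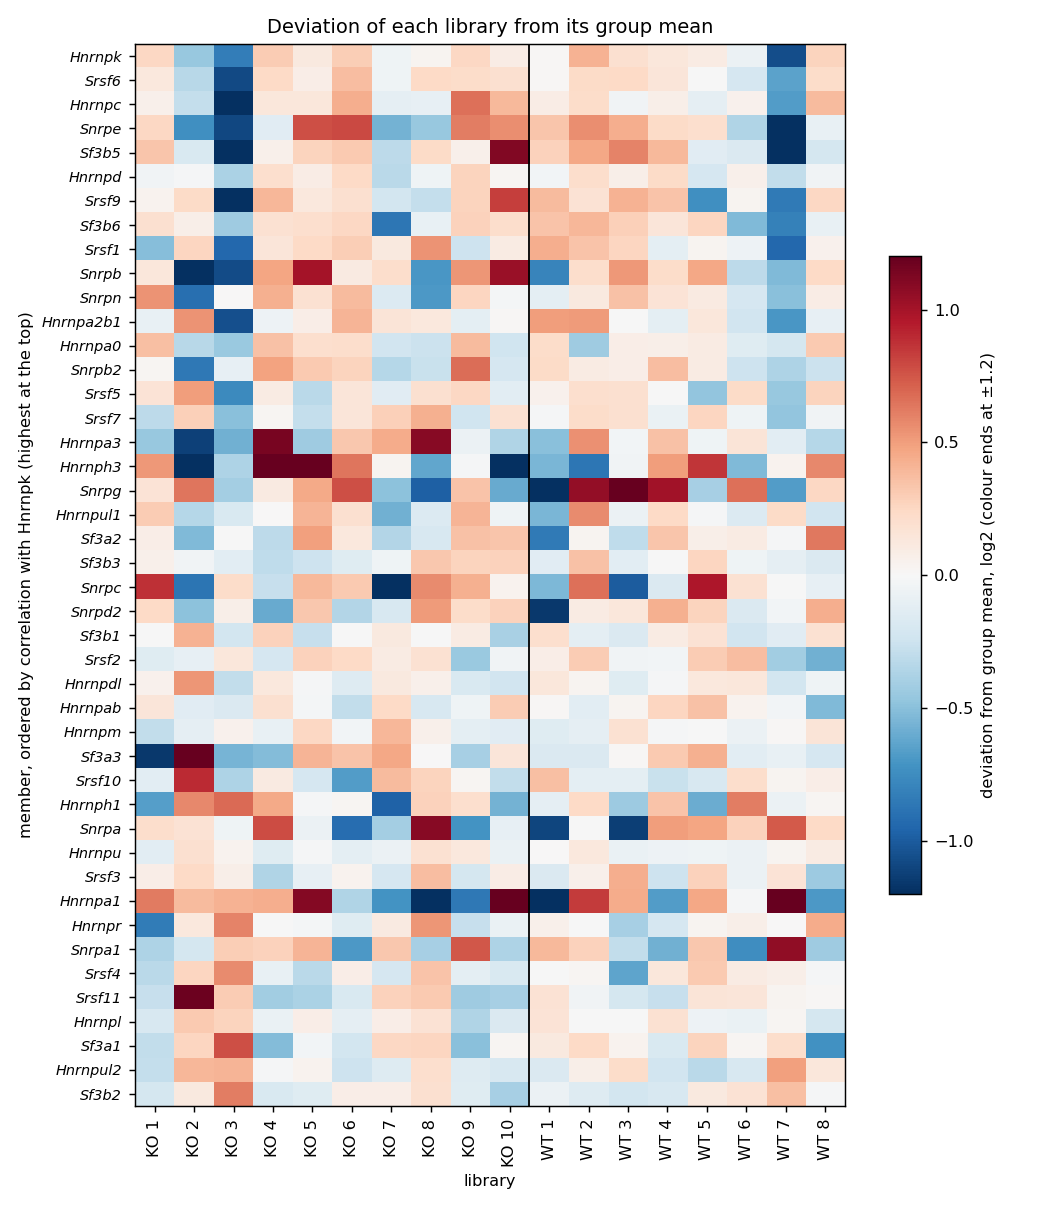
Deviation of each library from the mean of its group (log2, colour) for the 44 members, ordered by their correlation with Hnrnpk from high (top) to low (bottom), with 10 KO libraries left of the line and 8 WT libraries right of it. KO 3 and WT 7 are blue for genes at the top such as Hnrnpk, Srsf6 and Hnrnpc and red for Sf3b2 at the bottom, where they reach 9.11 and 9.12.

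The closest pair was Srsf6 with Hnrnpk, with Pearson r = 0.92 and Spearman rho = 0.79 over 18 libraries (permutation p of 2e-05 and 0.00018, adjusted over the 946 pairs 0.00284 and 0.0189). It remained at 0.88 without KO 3 and WT 7, the libraries farthest from the median of Srsf6, and at 0.78 without KO 2, KO 3 and WT 7. Other close pairs rested more on those libraries. Srsf6 with Hnrnpc had r = 0.90 and rho = 0.67 (adjusted permutation p 0.00284 and 0.0727), with r = 0.62 without KO 3 and WT 7 and 0.44 without the 3. Srsf6 with Sf3b5 had r = 0.88 and rho = 0.63 (adjusted permutation p 0.00394 and 0.0934), with 0.51 and 0.45 on the same omissions. Srsf9 with Sf3b5 had r = 0.88 and rho = 0.63 (adjusted permutation p 0.00284 and 0.0990), with 0.61 and 0.65, and Hnrnpa2b1 with Srsf1 had r = 0.87 and rho = 0.83 (adjusted permutation p 0.00236 and 0.0189), with 0.65 and 0.66. Over the 15 libraries without those 3 the median of the 946 pairs was still 0.03, with 78 pairs above 0.5 and 57 below -0.5. The median absolute correlation in these 15 was 0.24, against 0.22 over all pairs of listed genes.

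Of the 5 pairs that ran most against each other 4 involved Sf3b2 or Srsf11, the members with the most reads. Sf3b2 with Sf3b5, subunits of the same complex, had r = -0.90 and rho = -0.81 (permutation p of 1e-05, the smallest the permutations can give, and 8e-05, adjusted 0.00236 and 0.0189). It was -0.74 without KO 3 and WT 7 and -0.72 without the 3 libraries. Sf3b2 with Srsf9 had r = -0.88 and rho = -0.80 (adjusted permutation p 0.00236 and 0.0189), with -0.71 and -0.76 on the same omissions. Srsf11 ran against Snrpb with r = -0.85 and rho = -0.80 (adjusted permutation p 0.00284 and 0.0189), with -0.67 without KO 2 and KO 3 and -0.69 without the 3, and against Snrpn with r = -0.80 and rho = -0.75 (adjusted permutation p 0.00405 and 0.0252), with -0.54 without KO 2 and KO 8 and -0.76 without the 3. Sf3a1 with Hnrnpa0 had r = -0.82 and rho = -0.78 (adjusted permutation p 0.00236 and 0.0229), with -0.79 without KO 3 and WT 8 and -0.74 without the 3. Each of these 5 pairs had an r below -0.5 when the 3 libraries were left out, while Srsf6 with Hnrnpc and with Sf3b5 came out under 0.5. Values are scaled to a library size that is not the plain total of reads. In KO 3 that size was 2560900, against 3292303 reads over the listed genes. In WT 7 it was 2434960, against 2831137.

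**Figure D5:**
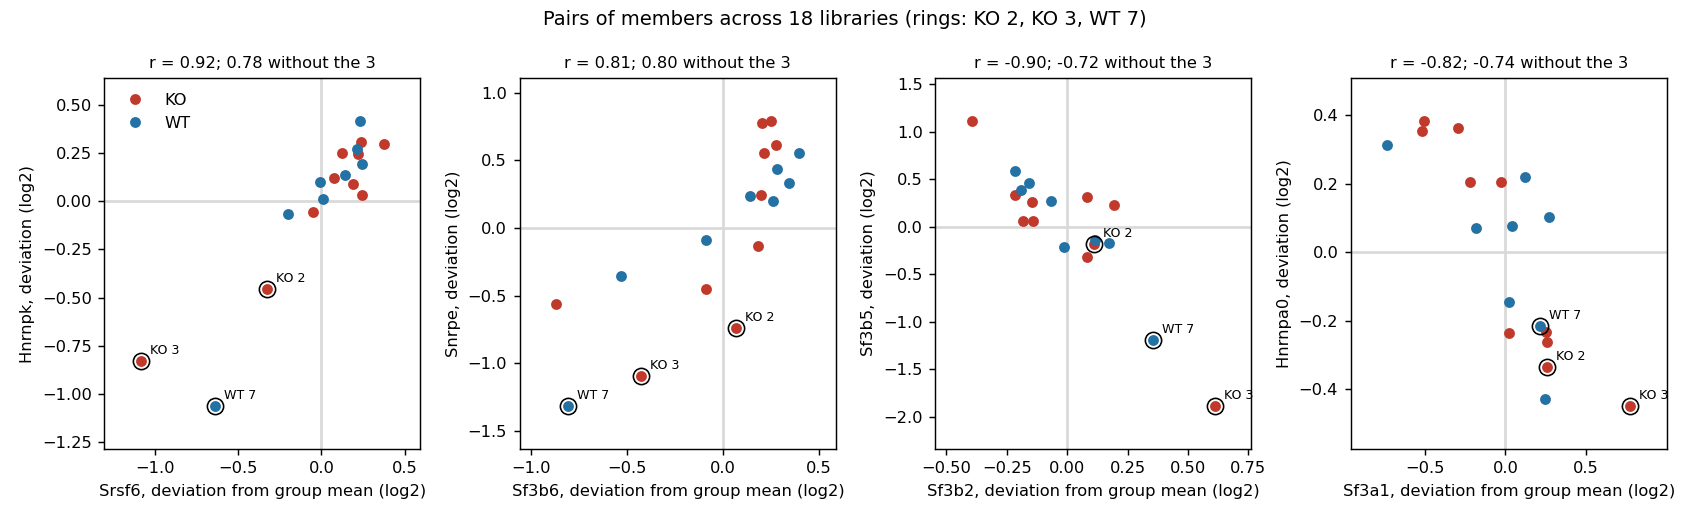
Deviation from the group mean (log2) of 4 pairs of members in 18 libraries (KO red, WT blue), with rings around KO 2, KO 3 and WT 7 and r with and without them above each panel. For Srsf6 with Hnrnpk r was 0.92 and 0.78, for Sf3b6 with Snrpe, chosen after the values were seen, 0.81 and 0.80, for Sf3b2 with Sf3b5 -0.90 and -0.72, and for Sf3a1 with Hnrnpa0 -0.82 and -0.74.

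Extreme values of members were counted by library beside those of all genes. KO 3 held the highest or lowest value of 12 members, or 27.3%, against 17.8% of all genes. KO 2 held 14, or 31.8%, which is about its share over all genes, 32.1%. WT 7 held 8, or 18.2%, against 21.7%, and WT 8 also 8, against 8.55%. WT 3 held 7, or 15.9%, against 6.13%, while KO 5 held 0, against 6.05%. Libraries as a whole differed little in the members' median level, which was 5.58 ± 0.16 (SD, n = 10) in KO and 5.56 ± 0.14 (SD, n = 8) in WT and lowest in KO 3 at 5.21. Outside the members, the 6 genes whose levels followed that median most closely over the 18 libraries were Prepl (r = 0.83), Pdhb (0.82), Fastk (0.81), Slx4ip (0.80), Larp1b (0.78) and Spcs3 (0.78). These were picked as the highest of all listed genes and are given as a description, with no test.

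No gene of the rest of the splicing machinery passed the test either. Of 141 genes in 8 further lists 125 were listed, of which 0 were called by limma, and 73 had a log2 fold change above 0 and 52 below. At an unadjusted p under 0.05, 1 of the 125 was higher, where 3.18% of all genes were, and 6 were lower, where 2.22% of all genes were. Srrm4, a neuronal regulator of microexons that is also active in islets, had log2 levels of 2.39, 3.56 and 4.12 (lowest, median, highest) in KO and 2.14, 2.42 and 3.38 in WT, and a log2 fold change of 0.86 (SE 0.26, limma adjusted p 0.797) from 12 to 55 reads. The neuronal RNA-binding gene Elavl2 was at -1.45 (SE 0.48, limma adjusted p 0.805), with 0 to 53 reads. Ranges of KO and WT overlapped for both genes. The exon junction helicase Eif4a3 was at -0.49 (SE 0.20), Plrg1 of the Prp19 complex at -0.38 (SE 0.14) and Gemin4 of the snRNP assembly complex at -1.03 (SE 0.45, 0 to 24 reads), with limma adjusted p of 0.925, 0.868 and 0.925. Rbfox3, chosen after its value was seen, was at -0.79 (SE 0.37).

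List medians stayed close to 0. They were 0.10 for the SR protein kinases and phosphatase regulators (6 of 8 higher), 0.08 for the SR-related proteins (12 of 14 higher), 0.04 for the tri-snRNP and Prp19 complex (17 of 26 higher) and 0.04 for the tissue regulators of splicing (18 of 33 higher). For snRNP assembly the median was 0.02 (5 of 10 higher), for U2AF and the branch point -0.02 (5 of 10), for LSm proteins -0.04 (5 of 11) and for the exon junction complex and nonsense-mediated decay -0.07 (5 of 13), beside -0.0025 for all genes, of which 49.6% were higher. These counts go by group mean. Of the 12 SR-related genes higher by mean, Luc7l3, Son, Srek1, Luc7l, Rbm39 and Tra2b also had a higher median in KO. Rbm25, Tra2a, Luc7l2, Acin1, Srrm1 and Rnps1 had a lower median in KO. For Rbm25 the KO median was 8.97 and the highest KO value 10.28, against a WT median of 9.03. No direction is read from the SR-related list. By level the SR-related list was the most abundant, with a median of 8.004, above each of the 4 member families, and the LSm proteins, at 3.54, lay near the snRNP proteins.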

How the data were processed

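Islet RNA of 10 KO and 8 WT mice on a high-fat diet was read at transcript 3′ ends (QuantSeq FWD, per the labels' protocols) from 50 ng of RNA after 20 cycles of PCR. The authors deposited log2 values for 10509 genes, and the values show them to be log2 of CPM plus a floor of 0.562 CPM. Per the submitters' processing notes, the build was GRCm38 and the tools included HTSeq 0.6.1, STAR 2.5.2 and edgeR, with no role stated. Neither the annotation nor the counting rules are stated there. Subtracting the floor gave whole reads for 100% of values in each library (tolerance 0.05 reads), which were used for depths, shares and limma voom. PCR copies were not marked, so read counts are not independent molecules.

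Each library carries its own animal number and was taken as 1 mouse. The number of KO 1, 131153, has 1 digit more than the others, for which the labels give no reason. As written, it falls in no run of consecutive numbers. Groups were compared with limma 3.58.1 (R 4.3.3) on the deposited log2 values with a variance trend, two-sided, adjusted by Benjamini-Hochberg over 10509 genes at 0.05, with no covariate. Fold changes on this scale understate the change of genes with few reads. Other tests were an exact rank-sum test and exact permutation tests over 43758 regroupings, two-sided, and 100000 permutations for correlations of group-centred values (Python 3.11.15, scipy 1.17.1). Limma, the rank-sum test, the ratio test and the correlation test were tested on simulated data or against scipy. Copies of 3′ ends were sought with blastn 2.17.0 in GENCODE M21, and promoters came from RefSeq. The count test of the design was run as limma voom on the recovered reads, since the file holds log2 values.

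Members, lists and alternatives were chosen with earlier results of these data known. Named genes are the 6 members of smallest p in each direction, the 6 of highest and of lowest level, the 4 of largest and of smallest spread, the 5 pairs of highest and of lowest correlation, the paralog pairs, the 6 other genes nearest to the median member, and up to 2 genes of smallest p in each direction of each other list, here those under an unadjusted p of 0.05. Alternatives were voom, sample weights, a fit without the trend, robust empirical Bayes, quantile normalization, median centring, a pseudocount of 1 in place of the floor, a filter at log2 above 3 in 8 or more libraries, leaving out each library or the 3 with most genes at 0 reads, and using just the 12 libraries whose animal numbers are consecutive and span both groups, either with a run term or with none. Chosen after seeing the data were scaling to reads outside insulin, differences within runs, and family sums without KO 2. Dropping the filter removed no gene and is not listed apart.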

Additional observations from a re-analysis of the deposited data

Results flagged for a closer look

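In 116 groups of values, each the KO or the WT libraries for 1 member, sum or ratio, 20 had an end value separated from the others by more than Dixon's 95% limit. Chance flags about 1 in 20 groups, and the groups share libraries. Of these, 6 came from KO 3 and 6 from WT 7, which had 227 and 346 genes at 0 reads, and the part of that in these values was not tested.

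In KO 3 the log2 level was far below the other KO libraries for Hnrnpa2b1 (4.33), Srsf6 (5.23), Srsf9 (3.87), Hnrnpc (4.65) and Sf3b5 (1.72), and the log2 ratio of Srsf4 to Srsf6 was far above them (-0.093). In WT 7 the level was far below the other WT libraries for Srsf1 (4.37), Hnrnpk (5.88), Srsf7 (6.01), Hnrnpc (5.45) and Sf3b5 (2.34), as was the share of reads taken by all members, 0.268%. Hnrnpc and Sf3b5 were thus far below the rest of both groups. In KO 2, Srsf11 (10.41), Hnrnpdl (7.19) and the summed SR proteins (2024 CPM) were far above the other KO libraries.

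Single values stood apart elsewhere. WT 1 was low for Snrpd2 (2.77) and for Snrpg, which had 0 reads there and so the floor value of -0.83, and high for the log2 ratio of Snrpn to Snrpb (2.02). WT 8 was low for Sf3a1 (5.003) and WT 3 for Srsf4 (3.48).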

How the results depend on the processing

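The count of called members was 0 in all 32 alternatives, members higher in KO numbered 19 to 27, and their median log2 fold change lay between -0.03 and 0.04. By family, that median ranged over the alternatives from 0.01 to 0.16 for SR proteins, -0.06 to 0.02 for hnRNP proteins, -0.03 to 0.07 for SF3 subunits and -0.30 to 0.13 for snRNP proteins. Other scalings moved the median of all genes by less than 0.1. Among named genes, Sf3b6 and Hnrnpr changed sign over the 12 libraries of runs, to -0.093 and 0.063 without and -0.054 and 0.052 with the run as a term, and the other 16 named members and list genes kept theirs. The median correlation was 0.063 with only members of level 5 or more.

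For ratios, Snrpn to Snrpb was at -0.015 with 1 added and -0.23 without the 3 libraries (leaving out 1 library: -0.11 to 0.12). Hnrnpa1 to Hnrnpa2b1 was at 0.050 from recovered reads, 0.16 without the 3 and 0.47 within runs (-0.43 to 0.33). Without the 3, Hnrnpul2 to Hnrnpul1 was at -0.013, Hnrnpdl to Hnrnpd at -0.024 (-0.017 to 0.094) and Srsf4 to Srsf6 at 0.47 (0.46 to 0.74), and Srsf1 to Srsf9 was at 0.045 within runs (-0.12 to 0.083). The cause was not tested. No paired analysis was possible because the labels give no replicate number shared by the groups.

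Of the 44 members 6 had fewer than 10 reads in some library. The intervals of Hnrnpa1 and Snrpg reached past a 2-fold change, and the part of read depth in their width was not tested.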
